A study of Canis lupus familiaris with 6 samples.

Results

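The genes described here encode receptors and other proteins by which blood monocytes and tissue macrophages are recognised, and they were followed in whole blood of Beagle dogs fed with or without CPP-Se. The members were taken as the rows of the deposited gene table whose gene name was CD163, CD14, CD68, VCAN, MSR1, MARCO, STAB1, ADGRE1, CD36 or CX3CR1. This rule found 9 of the 10 names among 31512 genes, since no row carried the name CD14. A single row without a gene name (ENSCAFG00000005852, chromosome 2, 35791440 to 35792559, minus strand) was described in the table as monocyte differentiation antigen CD14 and listed as a pseudogene. It is reported here as the CD14 row, beside the 9 members and not counted among them. Of the members, CD68 lies mostly in lysosomes and VCAN is secreted, so not all of them are surface proteins.

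The study compared a control group with a CPP-Se group, by libraries of whole blood taken on day 30, which the labels call biological replicates and which are taken here as 1 dog each. All dogs were healthy adult Beagles of 1.5 years on the same maintenance food. The control dogs received 30 g of a snack without CPP-Se, and the others received 30 g of a snack that held 0.03% CPP-Se. CPP-Se is selenium chelated by phosphopeptides from the milk protein casein. The study fed 12 dogs in all, whereas the files used here hold 3 libraries per group, named replicates 1, 2 and 3. How these 6 came from the 12 dogs, and the sex of the dogs, were not given in the sources used here.

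Monocytes are phagocytes that leave the bone marrow, circulate in blood and enter tissues, where they can become macrophages. CD14 presents bacterial lipopolysaccharide (LPS) to TLR4, while the scavenger receptors MARCO, MSR1, STAB1, CD36 and CD163 bind bacteria, modified lipoproteins, cell debris or hemoglobin for uptake. Several of these genes are also used by other blood cells, as CD36 is carried by platelets and CX3CR1 by NK cells and cytotoxic T cells.

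The values are FPKM, the fragments on a gene scaled by its length and by library size, so levels of different genes can be compared. Since FPKM multiplied by gene length gave whole multiples of 1 step per library (100% of values above 0, to within 0.01), the reads on each gene could be recovered. Reads on genes numbered 6598173 to 8067034 per dog. CPP-Se replicate 2 stood apart, since 8 hemoglobin genes took 36.6% of its reads, compared with 48.7% to 55.9% elsewhere. The library size that its FPKM imply was 1.65 times its reads on genes, against 0.882 to 1.05 times in the others. Fold changes and ratios of the members tested, and medians of other lists that this dog moved by over 1.5 times, are therefore given with and without it. Gene positions are those of the table, made on the dog genome of Ensembl release 100. In bulk blood, fewer monocytes, less RNA per monocyte and changes in the RNA of other blood cells cannot be told apart.

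Expression of CD68 was the highest of the 9 members, and CD36 was listed at 0. The order of mean FPKM over the 6 dogs was CD68 (152), the CD14 row (50.3), ADGRE1 (28.4), VCAN (14.5), CX3CR1 (12.6), MARCO (3.40), CD163 (1.08), STAB1 (0.617) and MSR1 (0.127). From CD68 down to VCAN the order was the same in each of the 6 dogs, and the ranges of neighbouring genes did not overlap in either group. VCAN lay above CX3CR1 in 4 of the 6 dogs, and the pair overlapped in the CPP-Se group. CD163 lay above STAB1 in 3 of the 6 dogs, so their order was not separated by the spread between dogs.

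**Figure D1:**
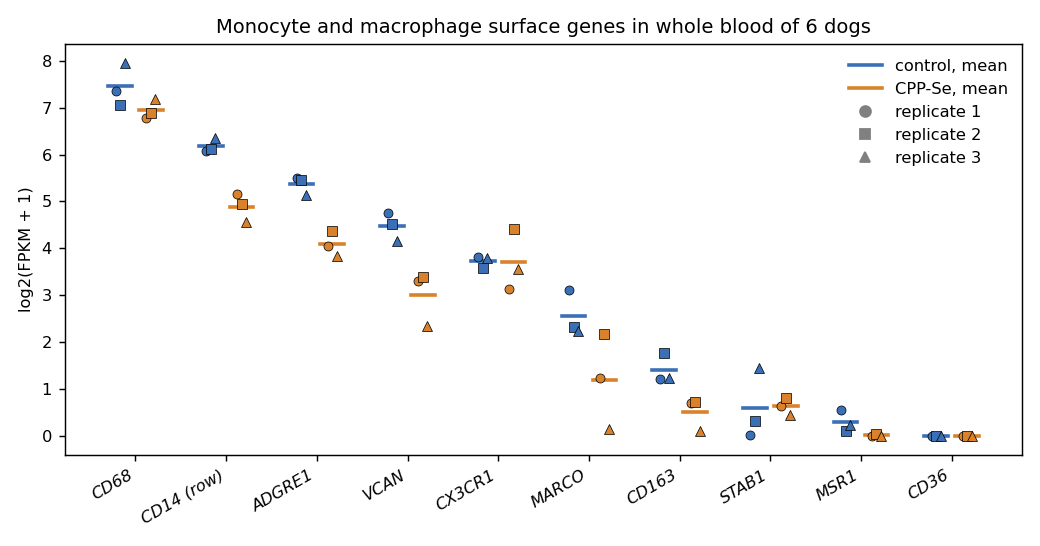
The level of each gene is plotted as log2(FPKM + 1) for 3 control dogs and 3 CPP-Se dogs, with points for dogs and bars for the mean of each group. The CPP-Se points lie below the control points for the CD14 row, ADGRE1, VCAN, MARCO, CD163 and MSR1, and CD36 is at 0 in each dog.

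The groups were compared by limma on log2(FPKM + 1), two-sided, with Benjamini-Hochberg adjustment over the 9847 genes whose mean reached 1 FPKM. A gene was called at an adjusted p under 0.05 with a fold change of at least 1.5. The members CD68, ADGRE1, VCAN, CX3CR1, MARCO and CD163 passed the filter on low values, as did the CD14 row, whereas STAB1, MSR1 and CD36 did not. CD163 passed it only through the control group. ADGRE1, VCAN and CD163 also stand in the study's own list of changed genes, which was drawn from these libraries, so their direction here is not independent evidence.

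ADGRE1, VCAN and the CD14 row had the smallest p-values among the rows tested, with mean levels in the CPP-Se dogs at 34.7% to 40.4% of the control mean. ADGRE1 (ENSCAFG00000018571, chromosome 20, 53404457 to 53465243) encodes the adhesion receptor known as F4/80 in mice, where it marks macrophages. Its FPKM in controls were 44.5, 42.9 and 34.2 (replicates 1, 2 and 3, the order used throughout), against 15.6, 19.6 and 13.3 with CPP-Se. The lowest control dog thus lay well above the highest CPP-Se dog. The means were 40.5 ± 5.54 and 16.2 ± 3.18 FPKM (SD, n = 3 per group, as for all genes). The log2 fold change of ADGRE1 was -1.28 (standard error 0.21, 95% confidence interval -1.76 to -0.80), with an adjusted p of 0.138 from limma, so the gene was not called.

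VCAN (ENSCAFG00000008582, chromosome 3, 24119181 to 24239192) encodes versican, a large proteoglycan of the extracellular matrix whose transcript is abundant in classical monocytes. Its control dogs had 25.9, 21.9 and 16.97 FPKM, and its CPP-Se dogs 8.83, 9.53 and 4.09 FPKM. The groups did not overlap, and CPP-Se replicate 3 was lower than the other CPP-Se dogs by more than they differed from each other. The log2 fold change of VCAN was -1.46 (standard error 0.31, 95% confidence interval -2.18 to -0.74, adjusted p = 0.138 from limma). VCAN had between 273 and 1929 recovered reads per dog.

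The CD14 row had 66.5, 68.1 and 80.3 FPKM in controls, against 34.5, 29.8 and 22.5 FPKM with CPP-Se. CD14 is the co-receptor that binds LPS on monocytes and, at lower density, on neutrophils. Its control dogs differed little, with a coefficient of variation of 10.5%, and its lowest control value was far above the highest CPP-Se value. The log2 fold change of the CD14 row was -1.29 (standard error 0.21, 95% confidence interval -1.78 to -0.81, adjusted p = 0.138 from limma). No other row in the table overlaps it.

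The class A scavenger receptors MARCO and MSR1 were measured at much lower levels. MARCO (ENSCAFG00000004913, chromosome 19, 30996347 to 31034487) encodes a collagen-like receptor that binds bacteria. Its FPKM were 7.67, 3.997 and 3.76 in controls, against 1.36, 3.52 and 0.110 with CPP-Se. The groups were separated only narrowly, since CPP-Se replicate 2 with 3.52 FPKM came close to control replicate 3 with 3.76 FPKM. MARCO had 78, 38 and 45 recovered reads in controls, against 13, 70 and 1 with CPP-Se. Its log2 fold change was -1.37 (standard error 0.50, 95% confidence interval -2.53 to -0.22, adjusted p = 0.257 from limma). It was -2.26 with a pseudocount of 0.1, -1.58 in a negative binomial model of its reads and -1.87 with limma-voom. With the pseudocount of 1, the value without CPP-Se replicate 2 was also -1.87, and without CPP-Se replicate 3 it was -0.85.

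MSR1 (ENSCAFG00000006830, chromosome 16, 39436753 to 39527438) encodes the receptor for modified low-density lipoproteins that is typical of tissue macrophages. It had 7, 1 and 3 recovered reads in controls, against 0, 1 and 0 with CPP-Se. A floor of 3 reads per library was used for counting error, and 5 of the 6 dogs were at or under it. A difference in MSR1 was therefore not detectable at this depth, although the groups did not overlap.

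CD163 (ENSCAFG00000013968, chromosome 27, 37669827 to 37753106) encodes the receptor that clears complexes of haptoglobin and hemoglobin. Its FPKM were 1.31, 2.42 and 1.36 in controls, against 0.622, 0.660 and 0.0814 with CPP-Se, which came from 54, 93 and 66 reads and from 24, 53 and 3 reads. Each control dog lay above each CPP-Se dog. The log2 fold change of CD163 on the log2(FPKM + 1) scale was -0.89 (standard error 0.31, 95% confidence interval -1.61 to -0.18, adjusted p = 0.240 from limma). The pseudocount of 1 is close to the level of this gene and lowers its fold change, which was -1.90 with a pseudocount of 0.1 and -1.87 when the recovered reads were fitted by a negative binomial model. The rows that overlap CD163 held 0 reads.

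STAB1 (ENSCAFG00000009273, chromosome 20, 37249746 to 37276535), the clearance receptor stabilin-1, did not separate the groups. Its recovered reads were 1, 13 and 110 in controls, against 28, 79 and 18 with CPP-Se. All 3 CPP-Se dogs lay between the control dogs, of which control replicate 1 was under the floor of 3 reads. STAB1 shares 87 bases with NT5DC2 on the other strand and a longer stretch with SPCS1, which held 0 reads, and it is not stated how reads on overlapping genes were counted.

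CD36 (ENSCAFG00000006401, chromosome 18, 20339050 to 20372639), the fatty acid and lipoprotein receptor that platelets and monocytes share, was listed at 0 in all 6 dogs. For a gene of its length, 3 reads would equal 0.134 to 0.292 FPKM, depending on the dog. Platelet genes were well measured in the same libraries, with 8 platelet genes summing to between 610 and 2148 FPKM per dog. PPBP, a platelet chemokine, had 466 ± 234 FPKM in controls, against 593 ± 457 FPKM with CPP-Se. What set the value of CD36 to 0 was not tested.

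CD68 and CX3CR1 did not separate the groups. CD68 (ENSCAFG00000016641, chromosome 5, 32501380 to 32503183), a lysosomal glycoprotein of phagocytes, had 161, 132 and 247 FPKM in controls, against 109, 117 and 145 FPKM with CPP-Se. The groups overlapped because control replicate 2 lay below CPP-Se replicate 3. The log2 fold change of CD68 was -0.50 (standard error 0.27, 95% confidence interval -1.13 to 0.12, adjusted p = 0.409 from limma), and it was -0.25 without control replicate 3.

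CX3CR1 (ENSCAFG00000031104, chromosome 23, 8938906 to 8952808) encodes the fractalkine receptor. It had 13.1, 11.04 and 12.9 FPKM in controls, against 7.82, 20.2 and 10.8 FPKM with CPP-Se. The control dogs were close together, while CPP-Se replicate 2 was above and the other CPP-Se dogs were below all of them. Its log2 fold change was -0.03 (standard error 0.31, 95% confidence interval -0.75 to 0.70, adjusted p = 0.973 from limma), so the interval spans changes in both directions. The sign was positive when FPKM were brought to a common sum (0.13) or to a common sum without hemoglobin genes (0.11). Without CPP-Se replicate 2, the dog that stood apart, the log2 fold change of CX3CR1 was -0.38 and the groups no longer overlapped. It was 0.25 without CPP-Se replicate 1. NK and cytotoxic genes, which mark other cells that carry CX3CR1, summed to 24.5 to 53.5 FPKM over 12 genes in controls, against 64.3 to 98.9 FPKM with CPP-Se. Their part in the level of CX3CR1 was not tested.

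**Figure D2:**
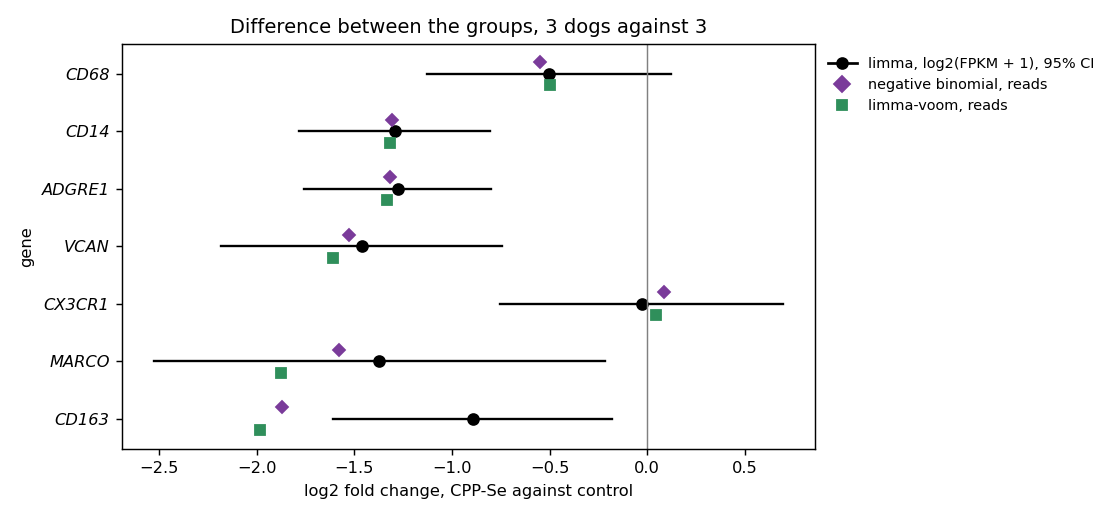
Log2 fold changes of the CPP-Se group against the control group are shown for the 6 members tested and the CD14 row, with circles and lines for limma and its 95% confidence intervals, diamonds for a negative binomial model and squares for limma-voom on the recovered reads. The intervals of the CD14 row, ADGRE1, VCAN, MARCO and CD163 lie below 0, and those of CD68 and CX3CR1 include 0.

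Counted over the 6 members tested, limma called 0, where it called 0.0305% of all genes tested as lower. Under an unadjusted p of 0.05, 4 of the 6 were lower, against 9.10% of all genes tested as lower and 6.87% as higher. No overlap between the groups was seen in these 4 members (ADGRE1, VCAN, MARCO and CD163), each lower in the CPP-Se group, against 12.6% of all genes tested as lower and 10.4% as higher. The same negative binomial model called 3 of the 6 (ADGRE1, VCAN and CD163) and the CD14 row as lower. That model called 6.14% of all genes tested, 3.76% as lower and 2.39% as higher. Limma-voom on the same reads called 0 of the 6, against 0.0102%, with 4 of the 6 lower at an unadjusted p under 0.05, against 9.29% of all genes tested. The median log2 fold change of the 6 members was -1.09 and that of all genes tested was -0.0043. CD163 is part of these counts, although it passed the filter only through the control group, which favours a lower result. Of the 5 members with at least 1 FPKM in both groups, which leave CD163 out, 3 did not overlap, with a median of -1.28. Of these 5, 3 were lower at an unadjusted p under 0.05 in limma (ADGRE1, VCAN and MARCO). The negative binomial model called only ADGRE1 and VCAN among them. With limma-voom, ADGRE1, VCAN and MARCO were lower at an unadjusted p under 0.05. Without CPP-Se replicate 2 the log2 fold changes were -1.42 for ADGRE1, -1.66 for VCAN, -1.003 for CD163, -0.47 for CD68 and -1.33 for the CD14 row, and limma called 0 of them. These counts describe members whose choice was made with earlier results of these data known, and they are not a test of the list.

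At a common sum of FPKM the values of CPP-Se replicate 2 moved up against the other dogs. ADGRE1, VCAN and CD163 still did not overlap, and neither did the CD14 row, whereas MARCO did. Limma then called 0 of the 6, against 0.0406% of all genes as lower and 0.0812% as higher. This left 3 of the 6 members without overlap, against 3.15% of all genes tested as lower. CD163, among these 3, passed the filter only through the control group. At a common sum without hemoglobin genes the same 3 members were without overlap, against 4.84%. These scalings moved the median of all genes up by 0.13 and by 0.12 on the log2 scale, and ADGRE1 then had a log2 fold change of -1.12 and of -1.14.

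Within the CPP-Se group, replicate 3 was the lowest dog in 5 of the 7 rows tested, namely the CD14 row, ADGRE1, VCAN, MARCO and CD163, and the highest in CD68. CPP-Se replicate 2 was the highest in 5 of the 7 rows and the lowest in 0. In the control group no dog was the lowest in more than 3 of the 7. CD68 and MARCO had profiles across the 6 dogs that were least alike, with a root mean square difference of 0.92 on the log2 scale after centring. The most alike were ADGRE1 and VCAN, with a difference of 0.25.

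**Figure D3:**
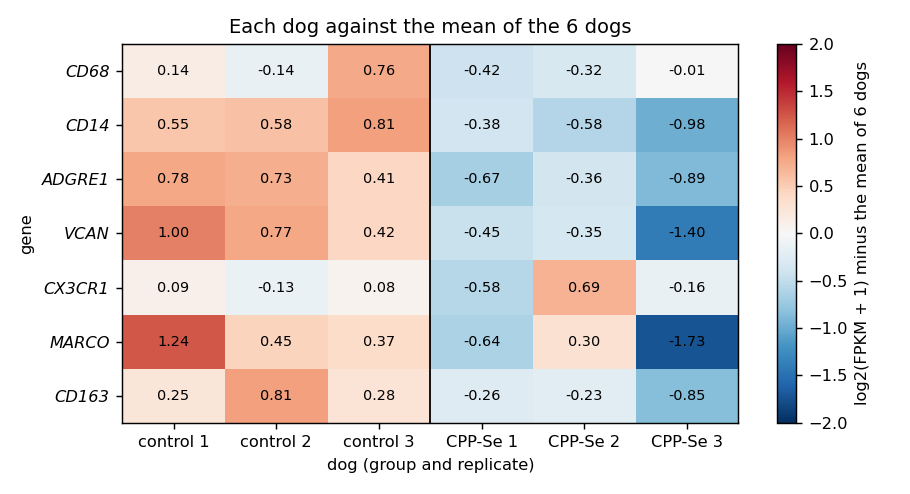
Each cell gives log2(FPKM + 1) of a dog minus the mean of the 6 dogs for that gene, with dogs in columns and genes in rows, and red for above and blue for below the mean. The control columns are positive throughout the rows of the CD14 row, ADGRE1, VCAN, MARCO and CD163, and CPP-Se replicate 2 is positive for MARCO (0.30) and CX3CR1 (0.69).

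Ratios to the CD14 row were formed within each dog, on log2(FPKM + 1), so that scaling between dogs enters only through the pseudocount. The difference of each of the 6 ratios between the groups was tested by exact permutation, two-sided, which cannot give a p under 0.1 with 3 dogs against 3. ADGRE1 relative to the CD14 row had a log2 ratio of -0.81 ± 0.35 in the control group and -0.79 ± 0.27 in the CPP-Se group, a difference of 0.02 (exact p = 1). VCAN and MARCO differed by -0.17 and -0.08 on the log2 scale, and CD163 by 0.40 (exact p = 0.7, 0.9 and 0.3), with overlapping groups. With a pseudocount of 0.1 these differences were -0.26 for VCAN, -0.94 for MARCO and -0.58 for CD163, so the direction for CD163 turned. CD68 relative to the CD14 row was 1.28 ± 0.33 in the control group and 2.07 ± 0.51 in the CPP-Se group, a difference of 0.79. CX3CR1 relative to the CD14 row was -2.44 ± 0.16 and -1.18 ± 0.75, a difference of 1.27. For both, every CPP-Se dog lay above every control dog (exact p = 0.1, the smallest possible, and 0.3 with Benjamini-Hochberg adjustment over the 6 ratios), so neither difference passed. Without CPP-Se replicate 2 the differences were -0.09 for ADGRE1, -0.33 for VCAN, -0.54 for MARCO, 0.32 for CD163, 0.86 for CD68 and 0.95 for CX3CR1. Without CPP-Se replicate 3 they were -0.02 for ADGRE1, -0.001 for VCAN, 0.28 for MARCO, 0.44 for CD163, 0.51 for CD68 and 1.17 for CX3CR1.

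**Figure D4:**
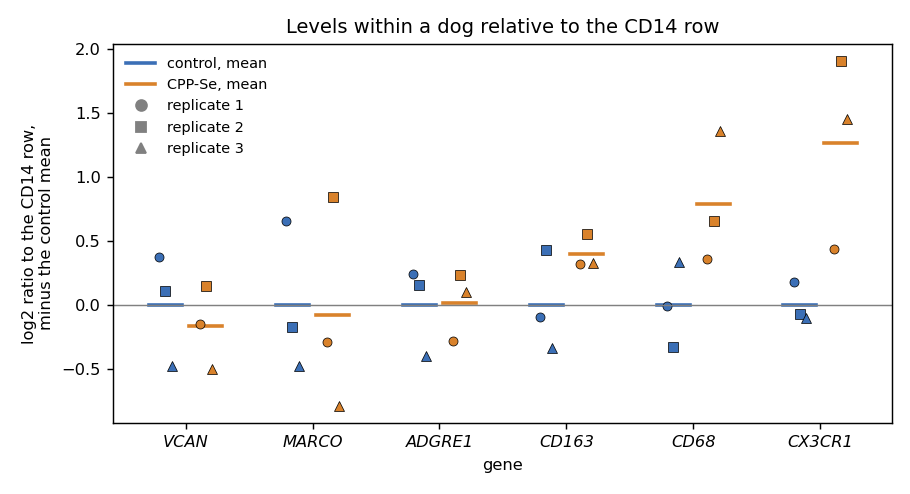
The log2 ratio of each member to the CD14 row within a dog is plotted after subtracting the control mean, with points for dogs and bars for group means. CX3CR1 and CD68 lie higher in all 3 CPP-Se dogs than in the control dogs, and the other ratios overlap.

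The genes with profiles nearest to those of the members were found among genes that had a symbol and averaged 1 FPKM or more, by the root mean square difference of centred log2(FPKM + 1) over the 6 dogs. Among the nearest to CD163 were BPI, an LPS-binding protein of granulocytes (0.068), and WSB1 (0.13). VCAN was nearest to IL1RAP, a chain of the interleukin-1 receptor (0.16), to the purinergic receptor gene P2RY13 (0.17) and to XDH (0.19). The nearest genes to ADGRE1 were PPP1R15A, PANK3 and TBPL1 (0.11 to 0.12). PFKFB2, FOXN2 and MEFV, which encodes pyrin, were nearest to the CD14 row (0.13 to 0.17). MARCO was less closely matched, with FGL2 at 0.25, XDH at 0.31 and CLEC4E, a C-type lectin receptor, at 0.31. The genes nearest to CD68 were EXT2, MAN1C1 and HMGN1, and those nearest to CX3CR1 were SLC9A8, ARSG and PRCP. The groups were part of each profile, so nearness here includes the difference between them.

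Most other genes typical of blood monocytes had lower levels in the CPP-Se dogs. Of 28 genes listed, 20 had a row and 18 were tested, of which limma called 0, with 12 at an unadjusted p under 0.05, each lower. Over all genes these shares as lower were 0.0305% and 9.10%. The groups did not overlap in 12 of the 18 as lower and in SIGLEC1, chosen after its values were seen, as higher, beside the 12.6% and 10.4% of all genes. The median log2 fold change was -0.75. PLBD1, a phospholipase-like protein of myeloid granules, had 181 ± 45.6 FPKM in controls, against 68.7 ± 11.1 FPKM with CPP-Se. LYZ, the gene for lysozyme, had 533 ± 124 and 211 ± 34.9 FPKM. CSF1R, the receptor for the growth factor of monocytes, had 79.6 ± 11.5 and 42.4 ± 16.9 FPKM, with a log2 fold change of -0.97 (adjusted p = 0.231 from limma). SIGLEC1 had means of 1.32 and 2.82 FPKM, a log2 fold change of 0.66. FCN1 was listed at 0 in all 6 dogs. The negative binomial model called 8 of the 18, each lower, beside 3.76% of all genes.

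The partners of CD14 in LPS recognition had lower levels in most cases. The groups did not overlap in 7 of the 9 genes tested, each lower in the CPP-Se dogs, beside 12.6% of all genes, and the median log2 fold change was -0.63. TLR4, the signalling receptor to which CD14 passes LPS, had 22.5 ± 4.51 FPKM in controls, against 9.24 ± 2.31 FPKM with CPP-Se, and a log2 fold change of -1.21 (adjusted p = 0.138 from limma). BPI had 67.7 ± 16.03 and 35.2 ± 7.73 FPKM. TICAM2, an adaptor of TLR4, had 5.08 ± 1.88 and 2.35 ± 0.951 FPKM, and CD180, a relative of TLR4, 14.4 ± 0.677 and 9.09 ± 1.91 FPKM. Limma called 0 of the 9, with 7 at an unadjusted p under 0.05, each lower, beside 9.10% of all genes, and the negative binomial model called 3 as lower, beside 3.76% of all genes.

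Among 14 other scavenger receptor genes with a row, 4 were tested and 10 were under 1 FPKM. The median log2 fold change of the 4 was -0.66, and it was -0.21 without CPP-Se replicate 3. SCARB2, a lysosomal relative of CD36, had 49.5 ± 7.83 FPKM in controls, against 23.3 ± 5.08 FPKM with CPP-Se (log2 fold change -1.07, adjusted p = 0.138 from limma). Of the genes for heme handling that follow uptake by CD163, 9 rows were tested, with a median of -0.41, which was -0.10 without CPP-Se replicate 2. SLC40A1, the iron exporter ferroportin, had 36.9 ± 8.64 and 23.6 ± 5.20 FPKM. The ligand of CX3CR1, CX3CL1, was listed at 0 in each dog, and CTSS, a protease that can shed it, had a log2 fold change of -0.81. Of 8 genes tested that work with CD36 or handle fatty acids, CD9 and LYN lay lower without overlap (-0.91 and -0.65) and FYN higher (0.56), beside 12.6% of all genes as lower and 10.4% as higher. Their median was -0.07, and 0.01 without CPP-Se replicate 2, while without CPP-Se replicate 3 it was -0.15. For versican, 2 genes of its partners and proteases were tested, with a median of -0.24, which was -0.08 without CPP-Se replicate 2. CD44, a receptor for hyaluronan, which versican binds, lay lower without overlap (54.3 ± 4.69 and 34.2 ± 8.41 FPKM). The log2 fold change of CD44 was -0.68 (adjusted p = 0.227 from limma), and that of HAS3, whose groups overlapped, was 0.21.

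Genes of tissue macrophages were scarce in these libraries. Of 12 genes with a row, 11 were under a mean of 1 FPKM, among them MRC1, VSIG4, C1QA and C1QB, and LYVE1 was listed at 0. The exception was TREM2, a lipid receptor of macrophages, with 54.3 ± 25.9 FPKM in controls against 49.6 ± 21.2 FPKM with CPP-Se. Its log2 fold change was -0.13, and it was 0.29 without CPP-Se replicate 2, 0.22 without control replicate 3 and -0.44 to -0.18 with any other dog left out.

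Medians of the markers of other blood cells lay on both sides of 0. Limma called 0 of these genes, beside 0.0305% of all genes tested. Over 9 neutrophil genes tested the median log2 fold change was -0.62, with 4 lower and 1 higher without overlap (12.6% and 10.4% over all genes). The summed level of 12 neutrophil genes was 2412 to 3201 FPKM in controls, against 1846 to 2366 FPKM with CPP-Se. MMP9 made up an uneven part of these sums. It had 729, 23.7 and 540 FPKM with CPP-Se, against 83.6 ± 14.2 FPKM in controls. CXCR2 had 193 ± 28.9 and 84.9 ± 25.2 FPKM, and CSF3R 903 ± 187 and 486 ± 103 FPKM. CAMP, the gene for the antimicrobial peptide cathelicidin, lay higher in the CPP-Se dogs, with 0.692 ± 0.0433 against 7.54 ± 4.39 FPKM. The log2 fold changes of T cell genes (11 tested) ran from -0.61 to 1.23 with a median of 0.74, which was 0.48 without CPP-Se replicate 3 and 0.47 without control replicate 3. Those of NK and cytotoxic genes (10 tested) ran from 0.40 to 1.55 with a median of 0.90, and those of B cell genes (10 tested) from -0.12 to 1.19 with a median of 0.64. Without overlap, 5, 4 and 5 genes of these lists lay higher, beside 10.4% of all genes, and the only gene of these 3 lists without overlap in the lower direction was CD4, which dog neutrophils also carry. Platelet genes had a median of -0.23 with 0 of 7 without overlap, but the median was 0.0076 without CPP-Se replicate 2 and 0.36 without control replicate 3. Red cell genes had a median of 0.26, with 2 of 12 higher and 1 lower without overlap, and the median was 0.46 without CPP-Se replicate 1 or 2 and -0.048 without CPP-Se replicate 3. The summed level of 10 B cell genes was 282 to 404 FPKM in controls, against 432 to 474 FPKM with CPP-Se. CD79A, whose groups overlapped, made up most of these sums, with 289 ± 49.7 and 346 ± 46.3 FPKM. The summed level of 11 T cell genes was 1060 to 1361 FPKM in controls, against 876 to 1031 FPKM with CPP-Se. These T cell sums run against the median of the list, and CD4 made up most of them (1041 ± 204 and 678 ± 102 FPKM). Of the 13 eosinophil and basophil genes listed, 9 had a row, 6 were tested and PRG3 was at 0. The median log2 fold change of the 6 was 0.76, but it was 1.47 without CPP-Se replicate 2 and 0.13 without CPP-Se replicate 1. The 9 genes summed to 179 FPKM in CPP-Se replicate 1 and to 227 FPKM in CPP-Se replicate 3, but to between 9.68 and 26.1 FPKM elsewhere. ALOX15, a lipoxygenase gene, made up 129 and 198 FPKM of the higher sums, and without it the sums were 50.1 and 28.7 FPKM in these 2 dogs and 5.63 to 21.0 FPKM elsewhere. The part of these other cell types in the levels of the members was not tested.

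**Figure D5:**
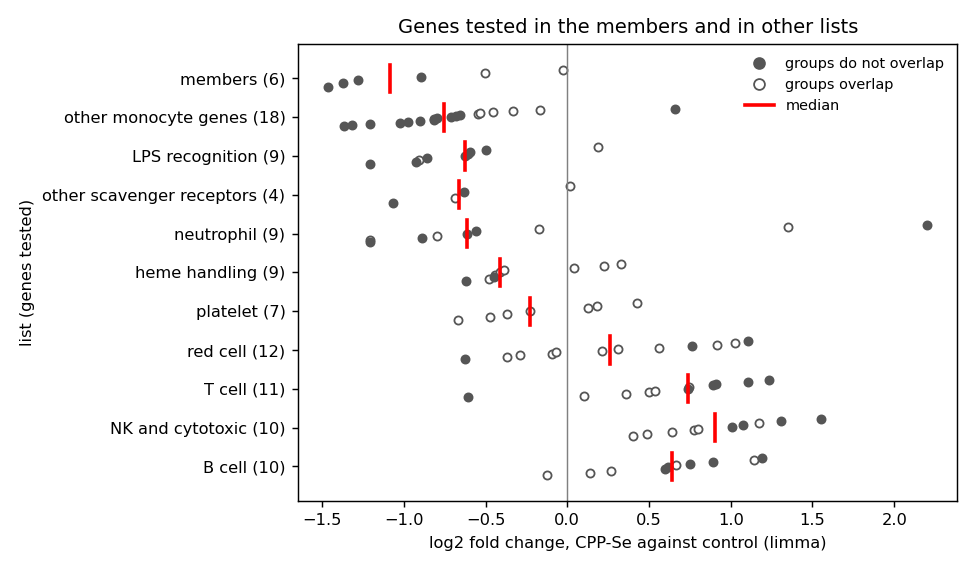
The log2 fold change of every gene tested in the members and in 10 other lists is plotted as a point, filled where the dogs of the groups do not overlap, and a red bar marks the median of a list. The members, other monocyte genes and LPS recognition genes lie mostly left of 0, and T cell, NK and B cell genes mostly right of it.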

How the data were processed

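The authors sequenced whole blood libraries (3 controls, 3 with CPP-Se) after Trizol extraction, oligo(dT) enrichment and NEBNext Ultra preparation. The submitters' processing notes name fastp 0.19.7, HISAT2 2.0.5 and featureCounts 1.5.0-p3, the study's methods also name StringTie, and the genome was that of Ensembl release 100. The authors deposited FPKM per gene, computed from gene length and mapped reads. The library size behind them, the use of strand and the handling of shared reads are not given in the sources used here.

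Groups and replicate numbers were taken from the labels. Genes averaging 1 FPKM or more were tested on log2(FPKM + 1) in R 4.3.3 with limma 3.58.1 (lmFit, eBayes with an intensity trend), in place of the count test of the study. Tables and figures were made with Python 3.11.15, numpy 2.4.6, pandas 2.3.3, scipy 1.17.1, statsmodels 0.14.6 and matplotlib 3.10.9. With 3 dogs per group, and no pairing of them given, p-values rest on the spread between these dogs. Recovered reads are not counts of independent molecules, so the floor of 3 reads covers counting error only. The members and lists were chosen with earlier results of these data known. The genes named were the members, up to 6 genes of each list (the largest changes) with an unadjusted p under 0.05 and no overlap of the groups, and the 3 nearest genes of each member tested. A gene that this rule covers is not reported here. Outside this rule, PPBP, TREM2, SIGLEC1, ALOX15, HAS3, MMP9, CD79A and markers at or near 0 were chosen after their values were seen. The ratio to CD14 used the row described as CD14. The alternatives were a pseudocount of 0.1, other filters and scalings, other variance models, sample weights, a replicate block, limma-voom and a negative binomial model (mean per group, dispersions shrunk to a trend, Wald test) on recovered reads, and each dog left out. The fits across genes were also run on simulated data, and the outcome is not reported here. The blood cell counts, serum measurements and metabolites were not analysed here.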

Additional observations from a re-analysis of the deposited data

How the results depend on the processing

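The log2 fold changes of ADGRE1, VCAN, CD68 and the CD14 row were negative under each of 18 other settings, as were those of MARCO and CD163 under the 17 in which they were tested. The sign of CX3CR1 turned positive with array weights (0.11), a common sum of FPKM (0.13), a common sum without hemoglobin genes (0.11), limma-voom (0.047) and the negative binomial model (0.088), and ranged from -0.38 to 0.25 with a dog left out. The number of genes called by limma, 3 as reported, was 12 at a common sum, 1 with limma-voom, 1 at a mean of at least 5 FPKM, 0 without a filter, 0 with a pseudocount of 0.1, 605 with the negative binomial model (235 higher and 370 lower) and 0 to 14 with a dog left out, the 14 without CPP-Se replicate 2. The split into 8 higher and 4 lower at a common sum stands against 0 higher and 3 lower in the reported fit. The number of members called was 0 under each setting but the negative binomial model, where it was 3, with CD163 among them. Genes called in the other lists (117 tested, 0 called) were 1 at a common sum, 27 with the negative binomial model and 0 to 4 with a dog left out. Over all genes the shares were 0.122% at a common sum and 6.14% with the negative binomial model. These lists were chosen with earlier results of these data known, so the counts are not a test of them. The median log2 fold change of the members was -1.47 with limma-voom, -1.42 with the negative binomial model, -1.46 with a pseudocount of 0.1, -0.70 without a filter (8 members) and -1.21 to -0.77 with a dog left out, the smallest without CPP-Se replicate 3. Members without overlap numbered 2 of 4 at a mean of at least 5 FPKM, where CD163 and MARCO were no longer tested, beside 850 of the 4995 genes tested, and 4 to 5 of 6 with a dog left out, beside 15.8% to 19.1% of all genes. With a pseudocount of 0.1 the log2 ratios of CD163, ADGRE1 and MARCO to the CD14 row differed by -0.58, -0.0039 and -0.94. With a dog left out the differences of the ratios ranged from -0.18 to 0.16 for ADGRE1, -0.41 to 0.017 for VCAN, -0.54 to 0.28 for MARCO, 0.23 to 0.62 for CD163, 0.51 to 1.01 for CD68 and 0.95 to 1.68 for CX3CR1.

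The deviations of same-numbered dogs from their group means had correlations of 0.016, -0.090 and -0.043 across genes. Those of differently numbered dogs ran from -0.078 to 0.112. These values gave no sign that the replicate numbers pair the dogs, but 3 dogs per group cannot exclude it. With a replicate block limma called 1 gene and 0 members, with a log2 fold change of -1.28 for ADGRE1 that was again not called. Depth limits MSR1, and 3 dogs per group limit every test.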
